A study of Mus musculus with 6 samples.

Results

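The genes described here supply NADPH, the reduced cofactor that cells spend on detoxification and on biosynthesis, and they were measured in whole tongue of adult C57BL/6J mice, an inbred strain with no engineered allele in either group. They were chosen by name, as enzymes of the pentose phosphate pathway (G6pdx, Pgls, Pgd, Rpia, Taldo1 and Tkt) and as further NADPH producers (Me1, Idh1 and Idh2). Of these 9 genes, 8 had a probe set that the platform annotation gives to that gene alone, among 18193 such genes in all. G6pdx, glucose-6-phosphate dehydrogenase, had none and was not analysed here. Tongues of 3 untreated mice, the negative controls, were compared with tongues of 3 mice that drank 4-nitroquinoline 1-oxide (4NQO) at 100 μg/ml for 8 weeks. 4NQO is a quinoline compound that damages DNA and gives rise to oral cancer in rodents. Each tongue was hybridized to 1 Affymetrix mouse array, and each value is the log2 of the signal of a set of probes.

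In the pentose phosphate pathway, glucose 6-phosphate is oxidised by glucose-6-phosphate dehydrogenase, 6-phosphogluconolactonase (Pgls) and 6-phosphogluconate dehydrogenase (Pgd), and both dehydrogenases reduce NADP to NADPH. The non-oxidative branch then interconverts the sugar phosphates through ribose 5-phosphate isomerase (Rpia), transketolase (Tkt) and transaldolase (Taldo1), and provides ribose for nucleotides. Cytosolic malic enzyme (Me1), cytosolic isocitrate dehydrogenase (Idh1) and mitochondrial isocitrate dehydrogenase (Idh2) make NADPH by other routes. Several of these genes are known to be switched on by NRF2, which drives the cell's response to oxidants, and their NADPH is used by glutathione reductase, thioredoxin reductase and the quinone, carbonyl and aldo-keto reductases.

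The median log2 signal of the arrays lay between 4.45 and 4.60, and all 8 genes had group means of 8.63 or more in the probe set used. The log2 signal of the 3′ control probe set of Gapdh exceeded that of the 5′ one by 1.67 in control 3 and by 1.07 in 4NQO 2, and by 0.086 to 0.47 elsewhere. Results were therefore also computed without these 2 arrays, called the arrays of weak 5′ Gapdh signal after this difference. The same difference for actin was 0.55 to 1.12, largest in 4NQO 1, and did not single out these 2 arrays. The keratinocyte marker Krt14 was between 12.9 and 13.5 and the skeletal muscle marker Acta1 between 13.6 and 13.9 on every array, while some salivary and fat markers differed widely between tongues of one group. Bpifa2, a salivary gland protein, had a log2 signal of 2.31, 11.4 and 8.37 in the control tongues. In such whole tissue, fewer cells of a type and less RNA per cell cannot be told apart.

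None of the 8 genes passed limma's test at an adjusted p under 0.05, where 0.126% of all genes were past it with higher and 0.0055% with lower signal after 4NQO. The smallest adjusted p was 0.144, for Pgd. Without adjustment, Pgd, Tkt and Taldo1 were higher at a p under 0.05 and none was lower, that is 3 of 8 higher where 6.68% of all genes were higher and 3.74% lower. These 3 genes were 1.58-fold, 1.54-fold and 1.35-fold higher in 4NQO-treated tongue. The groups did not overlap for these 3 and for Rpia, with 4 of 8 genes higher in every 4NQO-treated tongue (9.59% of all genes), and for Idh1, which was lower in every one (7.18% of all genes). The median log2 fold change of the 8 genes was 0.21, against -0.01 over all genes. It was 0.089 without control 2 and 0.35 without control 1. SAM, the test of the study's methods, called 0 of the 8 genes and 0.456% of all genes, and the methods' t-test after adjustment called 0 of the 8 and 0.011% of all. Before adjustment the methods' t-test put 3 genes higher (Pgd, Taldo1 and Rpia), where 5.75% of all genes were, and 1 lower (Idh1), where 3.59% were. Tkt was not among them, with an unadjusted p of 0.0654.

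**Figure D1:**
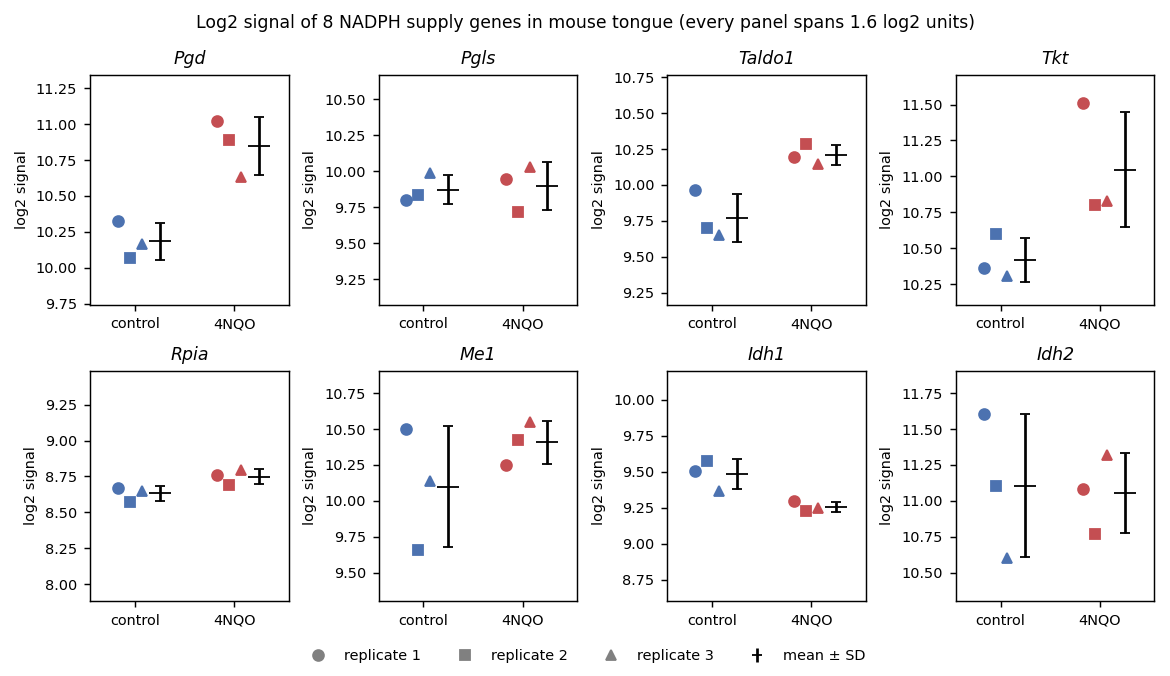
Log2 signal (vertical axis) of 8 NADPH supply genes in 3 control and 3 4NQO-treated tongues, with 1 symbol for each replicate number and the group mean ± SD in black. The groups are apart for Pgd, Taldo1, Tkt, Rpia and Idh1 and overlap for Pgls, Me1 and Idh2.

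Among the genes of the oxidative branch, Pgd was higher in 4NQO-treated tongue and Pgls was not distinguishable between the groups. Pgd, which makes NADPH in the step that yields ribulose 5-phosphate, had log2 signals of 10.3, 10.1 and 10.2 in the control tongues and 11.0, 10.9 and 10.6 in the 4NQO-treated tongues. The lowest 4NQO-treated tongue lay 0.30 above the highest control tongue. The log2 fold change was 0.66 (standard error 0.14, unadjusted p of 0.00156 and adjusted p of 0.144 from limma), and its 95% confidence interval on the linear scale was 1.26-fold to 1.98-fold. Pgd has 3 further probe sets, and all of them kept the groups apart, with log2 fold changes of 0.51, 0.62 and 0.70. The probe set used for Pgd is of the x_at kind, whose probes can also match other transcripts, and so are those that gave 0.51 and 0.62. The a_at set that gave 0.70 is made against transcripts of one gene. In all alternatives that refit the model, the log2 fold change of Pgd stayed between 0.58 and 0.77 and the unadjusted p at 0.0144 or less, and in none of them did the adjusted p fall below 0.113.

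Pgls, which opens the lactone ring between both dehydrogenase steps, had log2 signals of 9.80, 9.83 and 9.99 in control tongue and 9.95, 9.72 and 10.03 in 4NQO-treated tongue. The groups overlapped, with the lowest of the 6 values in a 4NQO-treated tongue. The fold was 1.02 with a 95% confidence interval of 0.824 to 1.26 (adjusted p = 0.962 from limma), an interval that excludes a change as large as the one measured for Pgd. The sign of this difference turned when control 1 or 4NQO 3 was left out.

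The start regions of the genes were read from RefSeq (GRCm38.p6), from 250 bases before to 50 bases after each start, and all 8 genes matched, with 11 promoters. They were searched on both strands for TGACNNNGC, the core of the antioxidant response element to which NRF2 binds with small MAF proteins. The core was found in 12.4% of 32851 promoters of this length and in 14% of 27025 genes. Of the 8 genes it was found in Pgd and Me1, in 1 of the 2 listed promoters of each. The promoters with a match are shown in lower case with the core in capitals, together with those of Taldo1 and Tkt, the other genes that were higher without adjustment, in which the letters were not found.
Pgd promoter (chr4:149166033-149166332, - strand): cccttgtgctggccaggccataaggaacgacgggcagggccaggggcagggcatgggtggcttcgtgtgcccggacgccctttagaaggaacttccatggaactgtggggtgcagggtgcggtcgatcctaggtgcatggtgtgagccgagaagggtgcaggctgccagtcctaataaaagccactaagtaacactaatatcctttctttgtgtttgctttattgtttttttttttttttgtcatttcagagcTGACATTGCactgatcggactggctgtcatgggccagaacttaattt
Me1 promoter (chr9:86695865-86696164, - strand): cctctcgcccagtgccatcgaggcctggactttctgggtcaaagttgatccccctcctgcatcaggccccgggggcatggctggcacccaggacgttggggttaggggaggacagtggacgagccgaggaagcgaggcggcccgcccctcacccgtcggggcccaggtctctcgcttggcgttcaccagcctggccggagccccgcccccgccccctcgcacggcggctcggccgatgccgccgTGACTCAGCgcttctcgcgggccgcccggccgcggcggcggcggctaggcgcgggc
Taldo1 promoter (chr7:141391910-141392209, + strand): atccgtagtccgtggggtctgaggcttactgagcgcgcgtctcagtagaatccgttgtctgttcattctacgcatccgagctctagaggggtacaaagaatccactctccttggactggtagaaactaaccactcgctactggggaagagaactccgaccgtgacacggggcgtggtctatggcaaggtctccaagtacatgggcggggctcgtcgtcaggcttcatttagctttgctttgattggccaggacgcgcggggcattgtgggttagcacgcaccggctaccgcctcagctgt
Tkt promoter (chr14:30548881-30549180, + strand): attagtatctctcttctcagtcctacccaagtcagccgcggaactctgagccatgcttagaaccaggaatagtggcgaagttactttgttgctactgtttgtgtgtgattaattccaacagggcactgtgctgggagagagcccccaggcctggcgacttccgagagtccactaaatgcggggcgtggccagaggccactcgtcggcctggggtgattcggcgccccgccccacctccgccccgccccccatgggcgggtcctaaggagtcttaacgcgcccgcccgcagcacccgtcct
The match in Pgd, TGACATTGC, lies 4 to 12 bases from the start, counted from 1 at the start. This start lies inside the gene, downstream of the other listed start of Pgd, whose promoter did not hold the core, and the bases around the match read as coding sequence of Pgd. The match in Me1, TGACTCAGC, begins 6 bases before the start and runs into the transcript. The GC box GGGCGG, to which SP1 family factors bind, was found in a promoter of every one of the 8 genes, against 38.2% of all genes. The promoters that held it were 56.7% to 74.7% G and C, against a median of 52.7% over all promoters, and base content was not matched. Tkt held 5 matches to it, of which one pair overlaps by 1 base. These are matches of letters, and no binding was measured.

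In the non-oxidative branch, Taldo1, Tkt and Rpia did not overlap between the groups, with the 3 treated tongues higher, by amounts that differed between the genes. Taldo1, which transfers a dihydroxyacetone unit between sugar phosphates, had log2 signals of 9.96, 9.70 and 9.65 in control tongue and 10.2, 10.3 and 10.1 in 4NQO-treated tongue. The 4NQO-treated tongues were close together, with an SD of 0.072 against 0.17 in the control tongues, and the gap between the groups was 0.18. The log2 fold change was 0.44 (standard error 0.13, unadjusted p of 0.00967 and adjusted p of 0.290 from limma). Without the 2 arrays of weak 5′ Gapdh signal it was 0.34 with an unadjusted p of 0.0706.

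Tkt, which transfers glycolaldehyde units with thiamine diphosphate as cofactor, had log2 signals of 10.4, 10.6 and 10.3 in control tongue and 11.5, 10.8 and 10.8 in 4NQO-treated tongue. The first 4NQO-treated tongue stood well above the other two, which were 0.20 or more above the highest control tongue. The log2 fold change was 0.62 (standard error 0.20, unadjusted p of 0.0151 and adjusted p of 0.339 from limma), and it was 0.39 without 4NQO 1. The probe set used for Tkt is likewise of the x_at kind. A second bright probe set of Tkt, which is not, gave 0.59, also with 4NQO 1 highest, at 10.8. The other probe set of Tkt, dimmer than the median of every array, gave 0.38, also with no overlap between the groups.

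Rpia, which makes ribose 5-phosphate for nucleotide synthesis, had log2 signals of 8.67, 8.58 and 8.65 in control tongue and 8.76, 8.69 and 8.79 in 4NQO-treated tongue. The groups were apart by only 0.02, and the spread within each group was the smallest or second smallest of the 8 genes, with an SD of 0.05 in both groups. The fold was 1.08 with a 95% confidence interval of 0.895 to 1.31 (unadjusted p of 0.356 and adjusted p of 0.758 from limma). The methods' t-test, which does not share the spread of other genes, gave Rpia an unadjusted p of 0.0484 and an adjusted p of 0.534.

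**Figure D2:**
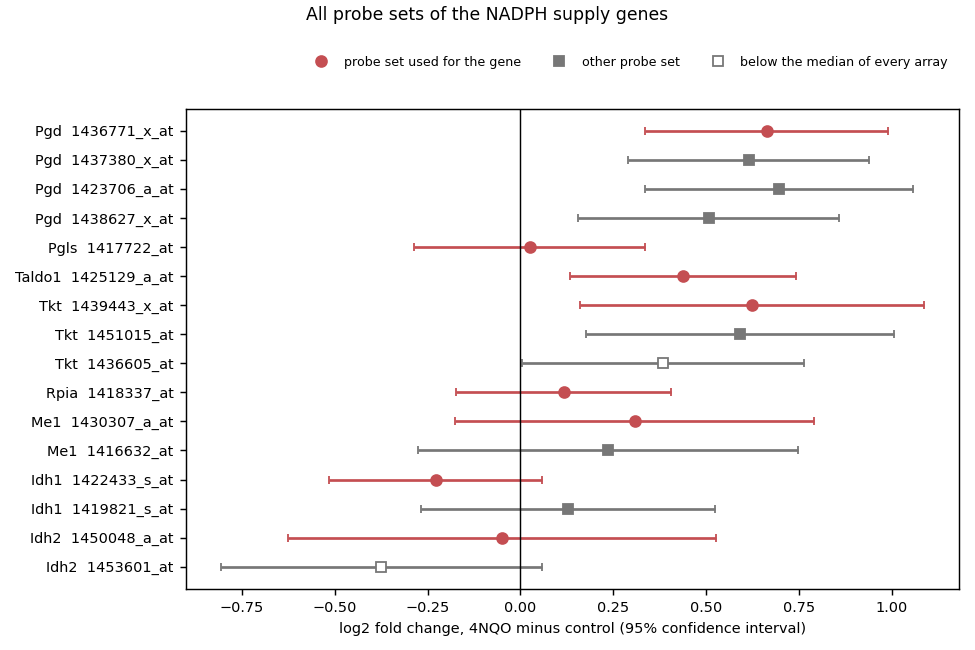
Log2 fold change of 4NQO-treated over control tongue with its 95% confidence interval for all 16 probe sets of the 8 genes, each tested as a feature of its own. All 4 probe sets of Pgd and all 3 of Tkt lie above 0, while the probe sets of Idh1 lie on either side of it.

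The NADPH producers outside the pathway gave no common direction. Me1, which turns malate into pyruvate in the cytosol and is a gene of fat-storing cells as well as a known NRF2 target, had log2 signals of 10.5, 9.66 and 10.1 in control tongue and 10.2, 10.4 and 10.5 in 4NQO-treated tongue. The groups overlapped, and control 2 was lower than all others. The log2 fold change was 0.31 (standard error 0.21, adjusted p = 0.642 from limma). This value was 0.089 without control 2 and 0.51 without control 1 (unadjusted p = 0.0296, adjusted p = 0.545 from limma). The other probe set of Me1 gave 0.24 and again had its lowest value, 9.57, in control 2. The adipocyte marker Adipoq had log2 signals of 3.88, 7.86 and 4.23 in control tongue and 8.22, 3.37 and 7.92 in 4NQO-treated tongue. Its relation to Me1 was not tested. The adipocyte markers Retn, Cidec and Lipe also differed widely between tongues of one group. Fabp4 and Lpl differed less, at 10.4 to 10.7 and 11.8 to 12.5 over all arrays.

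Idh1, which makes NADPH from isocitrate in cytosol and peroxisomes, had log2 signals of 9.51, 9.58 and 9.37 in control tongue and 9.29, 9.22 and 9.25 in 4NQO-treated tongue. All 3 treated tongues were lower than the control tongues, with a gap of 0.07 and an SD of only 0.035 among themselves. The log2 fold change was -0.23 (standard error 0.12, unadjusted p of 0.0923 and adjusted p of 0.551 from limma), 0.853-fold with a 95% confidence interval of 0.705 to 1.03. The methods' t-test gave Idh1 an unadjusted p of 0.0244 and an adjusted p of 0.486. The second probe set of Idh1 was near the array medians, at 4.51 to 4.98, and gave 0.13 with overlapping groups. With the mean of both probe sets, the log2 fold change of Idh1 was -0.05.

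Idh2, the mitochondrial enzyme, which is abundant in heart and skeletal muscle, had the widest spread of the 8 genes among the control tongues, with an SD of 0.50. Its log2 signals were 11.6, 11.1 and 10.6 in control tongue and 11.1, 10.8 and 11.3 in 4NQO-treated tongue. The lowest tongue of each group was the one with the largest difference between 3′ and 5′ Gapdh signal, control 3 and 4NQO 2. These 2 arrays were also lowest for Myh2, a myosin heavy chain of oxidative muscle fibres, at 5.43 and 5.01 against 8.49 to 9.36 elsewhere. Their part in the spread of Idh2 was not tested. The fold between the groups was 0.966 with a 95% confidence interval of 0.644 to 1.45 (adjusted p = 0.959 from limma). In this fit, neither a rise nor a fall of the size measured for Taldo1 was excluded. Without both arrays the log2 fold change was -0.16. With the difference between 3′ and 5′ Gapdh signal as a covariate it was -0.07, with a standard error of 0.14 against 0.25 in the main fit.

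The balance between both isocitrate dehydrogenases was compared within each array. The log2 signal of Idh1 minus that of Idh2 was -2.10, -1.53 and -1.24 in control tongue and -1.79, -1.54 and -2.07 in 4NQO-treated tongue. The control mean was -1.62 ± 0.44 (SD, n = 3), the treated mean was -1.80 ± 0.27 (SD, n = 3), and this gave a difference of -0.18 (p = 0.7, exact two-sided permutation test, which cannot give less than 0.1 here). Only the change of this value between groups can be read, since different probe sets do not share a scale. The sign turned with the second probe set of either gene and without control 3.

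The other enzymes of the pentose phosphate pathway, a list of 11 genes that were all measured, held no gene past the adjusted threshold, and 2 were higher without adjustment. Prps2, which makes phosphoribosyl pyrophosphate from ribose 5-phosphate, had a log2 fold change of 0.65 (unadjusted p of 0.00924 and adjusted p of 0.286 from limma), and its 4NQO-treated tongues, at 7.18, 7.10 and 6.65, lay above all control tongues, at 6.26, 6.19 and 6.52. Rpe, the epimerase that stands beside Rpia, had 0.53 (unadjusted p of 0.0219 and adjusted p of 0.384 from limma). Dera, an aldolase of deoxyribose phosphate, had 0.34. The list had a median of -0.03, and 4 of its genes, Shpk, Tktl1, Tktl2 and G6pd2, were dimmer than the median of every array. H6pd, which runs the first oxidative steps inside the endoplasmic reticulum, had a log2 fold change of -0.03, and the transketolase-like Tktl1 and Tktl2 had -0.15 and -0.22.

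Of 12 genes listed as other NADPH producers, NAD kinases and related enzymes, 4 were higher without adjustment and none passed after it. The list includes enzymes that do not make NADPH themselves, so this is not a count of NADPH producers. Mthfd1l, Aldh1l2 and Mthfd2, 3 mitochondrial enzymes of one-carbon folate metabolism, had log2 fold changes of 0.66, 0.61 and 0.50 (adjusted p 0.246, 0.256 and 0.423 from limma). Aldh1l2, which makes NADPH as it oxidises formyl tetrahydrofolate, had log2 signals of 6.64, 6.40 and 6.47 in control tongue and 7.22, 6.87 and 7.26 in 4NQO-treated tongue. Me2, a mitochondrial malic enzyme, named after its values were seen, had 0.40 (adjusted p = 0.433 from limma). Me3, the other mitochondrial malic enzyme of the list, had -0.17 with overlapping groups. Nadk, which makes NADP from NAD in the cytosol, had 0.24, while Nnt, the transhydrogenase of the inner mitochondrial membrane, had 0.03. These are RNA signals, and whether a working Nnt enzyme is made in these mice was not measured. The median of the list was 0.17. Among 7 measured genes that bring glucose to the pathway or take it elsewhere, Slc2a1, the glucose transporter GLUT1, had the highest value, 0.96 (adjusted p = 0.0703 from limma). The study itself had picked it from its arrays, and its direction here is therefore no independent evidence. Pgm1 and Hk2 had -0.38 and -0.28 with overlapping groups.

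**Figure D3:**
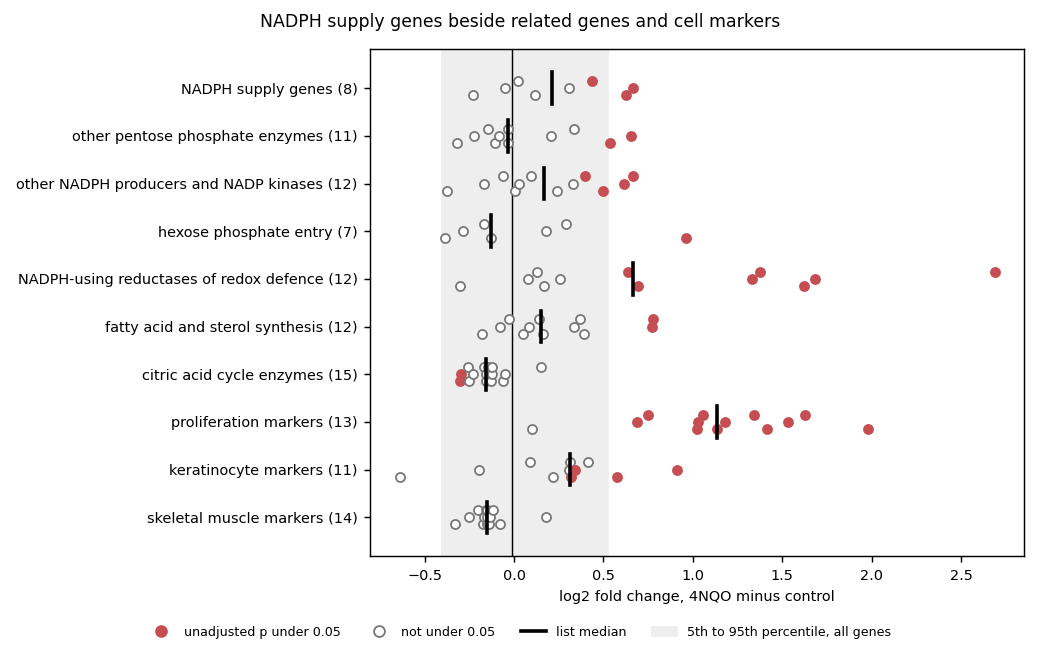
Log2 fold change of 4NQO-treated over control tongue for each measured gene of the NADPH supply genes, of related lists and of cell marker lists, with the number of genes in brackets. Filled points had an unadjusted p under 0.05, and the NADPH supply genes have a median of 0.21, between 0.67 for the NADPH-using reductases and -0.15 for the citric acid cycle enzymes.

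The reductases that spend NADPH on redox defence had a higher median log2 fold change than the genes that supply it, a difference between lists that was not tested. Of 12 measured NADPH-using reductases of redox defence, 4 rose past limma's adjusted threshold, none fell and 8 did not pass, with a median log2 fold change of 0.67. Akr1b8, Nqo1, Ptgr1 and Cbr3 rose by 2.69, 1.68, 1.38 and 1.33 on the log2 scale, and the study had picked Akr1b8 and Ptgr1 from its arrays of this treatment, which may be the arrays analysed here, so that their direction is not independent evidence. Gsr, which spends NADPH to regenerate glutathione and was named after its values were seen, had 0.64 (adjusted p = 0.251 from limma), close to Pgd in size, with 8.32, 8.74 and 8.30 in 4NQO-treated tongue against 7.75, 7.99 and 7.70 in control tongue. Txnrd1, thioredoxin reductase, had 0.17. Of 15 measured NRF2 targets outside NADPH supply, which share Nqo1, Cbr3 and Txnrd1 with the reductases, 6 rose (Gclc, Slc7a11, Nqo1, Gsta4, Gsta3 and Cbr3), and the list's median was 0.84. Of these, all but Nqo1 and Cbr3 were likewise picked by the study.

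Fatty acid and sterol synthesis also draws on NADPH. Of its 12 measured genes none passed after adjustment and 2 were higher without it, Scd2, a fatty acid desaturase, with a log2 fold change of 0.78, and Sqle, squalene epoxidase, with 0.77. Acly had 0.33, and the list had a median of 0.15. The enzymes of the citric acid cycle, a list that also holds the cytosolic forms Mdh1 and Aco1, had log2 fold changes below 0 in 14 of 15 genes, with a median of -0.15. Sdha and Dlst had log2 fold changes of -0.30 each and were lower without adjustment, Mdh1 had -0.26, and none passed after adjustment.

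Most markers of dividing cells were higher in 4NQO-treated tongue without adjustment, with a list median of 1.14 (log2), and the medians of the other marker lists lay between -0.22 and 0.31. Of 13 measured proliferation markers, 3 rose past limma's adjusted threshold (Mcm5, Rrm2 and Tk1, of which the study had picked Mcm5), 12 were higher without adjustment, and the log2 of their summed signal was 11.5 to 11.9 in control and 12.5 to 12.9 in 4NQO-treated tongue. For 11 keratinocyte markers the median was 0.31, with summed levels of 15.9 to 16.0 in control and 16.0 to 16.2 in treated tongue and 4 genes, Sfn, Krt6a, Krt14 and Cdh1, higher without adjustment. Of the 11, 9 had log2 fold changes above 0 and 2 below it, Krt15 with -0.64 and Krt4 with -0.20, both with overlapping groups. Skeletal muscle markers were below 0 in 13 of 14 genes, with a median of -0.15 and summed levels of 16.8 to 17.1 and 16.8 to 16.9. Leukocyte markers had a median of 0.19 over 12 genes, with Ptprc, Cd3g and S100a8 higher and Cd79a lower without adjustment and summed levels of 11.4 to 12.4 and 11.5 to 13.0. S100a8, a calcium-binding protein abundant in neutrophils, differed by 2.76 on the log2 scale, higher in every treated tongue (adjusted p = 0.261 from limma). This was above the difference of every proliferation marker, of which Rrm2 was highest at 1.98. The S100a8 values in treated tongue were spread widely, at 8.04, 9.27 and 11.2. Other myeloid markers of the list had overlapping groups, with -0.01 for Itgam, -0.02 for Lyz2, 0.23 for Csf1r, 0.30 for Adgre1 and 0.37 for Cd68. For fibroblasts and vessels the median was -0.22 over 11 genes, with Col1a2 lower without adjustment and summed levels of 14.2 to 14.5 and 13.9 to 14.3. Adipocyte and salivary gland lists had medians of 0.02 and 0.04 and held no gene past either threshold, with summed levels of 12.3 to 12.9 and 12.3 to 12.8 for fat and of 8.06 to 12.7 and 7.16 to 13.5 for gland. The part of these markers in the values of Pgd, Tkt, Taldo1 and Idh1 was not tested.

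The profiles most like those of Pgd and Taldo1, the 2 genes with the smallest p, were sought among 9095 other genes brighter than the median gene, by the root mean square difference over 6 arrays after centring each gene on its mean. Nearest to Pgd were Rfc4, a subunit of the clamp loader of DNA replication, at 0.053, Nme1, a nucleoside diphosphate kinase, at 0.055, and Eef1e1, a component of the aminoacyl-tRNA synthetase complex, at 0.063. For Taldo1 the nearest were Glo1, glyoxalase 1, at 0.043, Prps1l3, a phosphoribosyl pyrophosphate synthetase-like gene, at 0.058, and Nup43, a nucleoporin, at 0.061. All 6 genes had log2 fold changes of the same sign, from 0.38 to 0.68, as the search for a like profile requires.

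**Figure D4:**
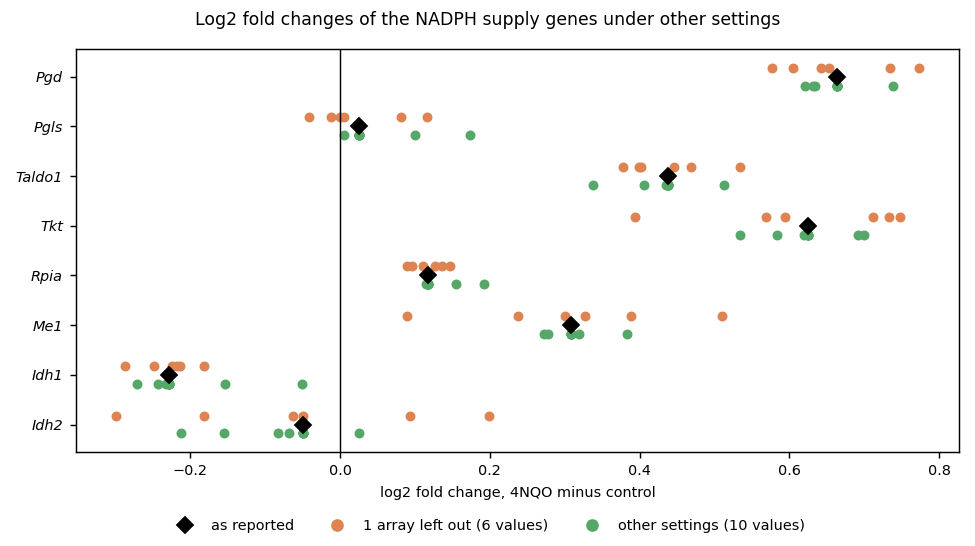
Log2 fold change (horizontal axis) of each NADPH supply gene as reported (black diamond), with 1 array left out (orange) and under the other settings that refit the model (green). Pgd, Taldo1, Tkt and Rpia stayed above 0 and Idh1 below it under all 16 alternatives, while Pgls and Idh2 crossed 0.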

How the data were processed

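Total RNA of single tongues was hybridized to Affymetrix mouse arrays. Pre-processing and normalization were done by the authors with Bioconductor in R, by a method not given in the sources used here. They deposited 1 log2 signal for each probe set and array, and the table has no detection calls. Of 45101 probe sets, 34945 were annotated to 1 gene. For each of 18193 genes the one of highest mean across the 6 arrays stood for it. Groups followed the sample labels, and each array held RNA of an individual tongue.

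The groups were compared with limma 3.58.1 in R 4.3.3 (lmFit and eBayes with an intensity trend), Benjamini-Hochberg adjustment over all genes and a threshold of 0.05, without a filter on dim genes. The fit was tested on simulated data. The single within-array difference was tested by exact permutation. Every member was named. Of the other lists, genes past the threshold or up to 3 with the smallest p were named. H6pd, Tktl1, Tktl2, Nadk, Nnt, Me2, Me3, Gsr and Txnrd1 and the marker genes named for their unadjusted p were added after their values were seen. The markers Bpifa2, Acta1, Adipoq, Fabp4, Lpl, Retn, Cidec, Lipe, Krt15, Krt4, Myh2, Itgam, Lyz2, Csf1r, Adgre1 and Cd68 were also named outside this rule, with their values known. Members and lists were chosen with earlier results of these data known. Alternatives were quantile normalization, centring, a filter on dim genes, other probe sets and variance models, the replicate block, the Gapdh difference as a covariate, leaving out arrays, the methods' t-test and SAM with all 20 label permutations. The number of arrays, 3 per group, limits the precision.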

Additional observations from a re-analysis of the deposited data

How the results depend on the processing

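The counts of NADPH supply genes past the adjusted threshold stayed at 0 in both directions under all alternatives that were run. Without adjustment, 2 to 4 genes were higher, with 4 without control 1 and 2 without both arrays of weak 5′ Gapdh signal, and 0 lower except 1 (Idh1) by the methods' t-test. The share of all genes at this unadjusted threshold was counted only for the main fit and the methods' t-test. The counts under the other settings therefore have no share to be read against. Leaving out 1 array at a time gave log2 fold changes of -0.042 to 0.12 for Pgls and -0.30 to 0.20 for Idh2. With each array centred on its median, Idh2 was at 0.025, which turned its sign. The median of all genes was -0.01 as deposited, 0.01 after quantile normalization and 0.06 after centring.

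The number of all genes higher and lower, 23 and 1, moved far more. It was 63 and 2 after centring, 12 higher without dim genes, 15 higher with the mean of all probe sets, 2 lower without an intensity trend, 43 and 4 with the robust variance, 102 and 5 with the Gapdh difference as a covariate, 4 and 0 without both arrays of weak 5′ Gapdh signal, 1 higher by the methods' t-test and 83 and 0 by SAM. Leaving out 1 array at a time gave 0 to 25 higher and 0 to 2 lower. The replicate block gave 2 and 0, and the cause was not tested. Correlations of deviations within the 3 shared numbers were 0.29, -0.51 and 0.05. These are too few to settle whether the numbers pair the tongues. The difference of Idh1 minus Idh2 between groups was 0.18 with the other probe set of Idh1, 0.15 with that of Idh2 and 0.50 with both, and -0.42 to 0.013 when 1 array was left out. With 3 arrays per group, none of the 8 genes could be told from no difference after adjustment. In limma's test, Rpia and Idh1 were not past the threshold without adjustment either.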
